A study of Mus musculus with 6 samples.

Results

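Carboxylesterases are enzymes that cut ester and amide bonds, and the mouse liver makes many of them. The 10 genes described here are Ces1b, Ces1c, Ces1d, Ces1e, Ces1f, Ces1g, Ces2a, Ces2c, Ces3a and Ces3b, chosen by symbol from the 34352 genes that the deposited table with symbols names, and all 10 passed the filter on low values that 9908 genes passed. RNA was sequenced from livers of 3 cadmium and 3 control libraries of wild-type (WT) C57BL/6 mice. The cadmium mice received cadmium chloride, a toxic metal salt, by gavage at 20 mg/kg/day up to day 90, and the control mice received 0 mg/kg/day over the same time; per the labels all were males that entered the study at 6 to 8 weeks of age. All 6 libraries are the input fraction of an experiment that pulled down methylated RNA (m6A), described in the labels as the RNA left unbound by the antibody, and each batch number, 1 to 3, holds 1 cadmium and 1 control library. The labels give 6 mice per group and do not say which mice went into which library, so the p-values here reflect how far these libraries vary, which may be partly technical.

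Most liver carboxylesterases sit in the lumen of the endoplasmic reticulum, held there by a retention signal at the end of the protein, and some are secreted into plasma. They activate or inactivate drugs and other esters that enter the body, and several also release fatty acids from stored triglyceride and cholesteryl ester, part of which the hepatocyte packs into very low density lipoprotein. Mice carry many more of these genes than people do, since the Ces1, Ces2 and Ces3 groups each multiplied by tandem duplication. Human CES1 and CES2 are best known for hydrolysing ester prodrugs.

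Depth was 42115960, 68587128 and 65662619 reads, recovered from the deposited log2 values, in cadmium replicates 1 to 3, against 59095817, 50117621 and 42476574 in control replicates 1 to 3, and each carboxylesterase described here had between 1084 and 146626 reads per library. Although the labels call the mice male, Xist, which is transcribed from the inactive X chromosome of female cells, was present in all 6 libraries at 19.7 to 35.5 FPKM, and the Y-linked genes Ddx3y, Eif2s3y, Kdm5d and Uty were listed at 0 in all 6. Cadmium replicate 2 and control replicate 1 stood apart: albumin (Alb) took 2.91% and 2.87% of their reads, against 4.89% to 5.06% in the other 4 libraries, and mitochondrial ribosomal RNA took 0.277% and 0.265%, against 0.782% to 1.19%. The genes Rn7s1 and Rn7s2 together took 19.3% and 23.1% of the reads of this pair, against 14.4% to 16.0% in the other 4 libraries. The metallothioneins Mt1 and Mt2, metal-binding proteins that cadmium induces, rose by 4.77 and 6.52 on the log2 scale (limma adjusted p = 0.0149 and 0.00688; Mt1 0.0838 without cadmium replicate 3). None of the 5 hepatocyte or 3 erythroid markers passed the test. Of the 5 cholangiocyte markers only 1 passed the filter, Spp1, which was not called (log2 difference 0.95, limma adjusted p = 0.267). Of the markers tested, 2 of 5 Kupffer cell, 1 of 5 sinusoidal endothelial and 3 of 4 stellate cell markers rose, against 7.86% of all genes. The summed FPKM of these marker lists was 26.1 to 30.0 in cadmium libraries against 15.5 to 23.0 in control libraries for Kupffer cells, and 23.5 to 25.4 against 10.6 to 17.1 for stellate cells. Endothelial sums overlapped, at 21.3 to 29.5 in cadmium and 15.9 to 23.8 in control libraries. Cholangiocyte sums, at 7.55 to 25.6 in cadmium and 6.22 to 9.96 in control libraries, overlapped too. The part of these cell types in the results below was not tested. In bulk liver fewer cells of a type and less RNA per cell cannot be told apart. Markers of other organs were low apart from the enterocyte list. The adipocyte sums were 0.326 to 0.546 FPKM in cadmium and 0.297 to 0.701 FPKM in control libraries, with Plin1, Lep and Retn listed at 0 in all 6. The pancreatic acinar sums, 1.32 to 1.60 and 1.08 to 1.89 FPKM in cadmium and control libraries, came from Cela1, with Cpa1, Prss2, Pnliprp1 and Ctrb1 at 0, and no kidney tubule sum passed 0.0304 FPKM, with Slc34a1 and Slc12a1 at 0. The sums of the 4 enterocyte markers in the table were 98.1 to 116 FPKM in cadmium and 52.0 to 85.7 FPKM in control libraries, with Alpi at 0. Most of that was Apoa4, an apolipoprotein that hepatocytes also make, which was higher in cadmium libraries (limma adjusted p = 0.0411); that call was lost with the block (0.103) and without any library other than control replicate 2 (0.0664 to 0.146).

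Cadmium livers held less RNA of 2 of the 10 carboxylesterases, Ces1d and Ces1b, and the other 8 did not pass the test in either direction. Values are FPKM (fragment counts scaled to gene length and to the library's total), differences are cadmium minus control on the log2(FPKM + 1) scale, and a gene was called at a limma adjusted p under 0.05 over all 9908 genes. Across all tested genes 1.82% were called lower and 7.86% higher, so the members' 2 of 10 lower and 0 of 10 higher read against those shares. On the deposited log2 values the split of all genes turned, with 4.98% lower and 3.85% higher, and the same 2 members were lower. With the batch number as a block 0.646% of all genes were called lower and none of the 10 members was. The median difference of the 10 members was -0.03, against 0.09 over all genes.

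**Figure D1:**
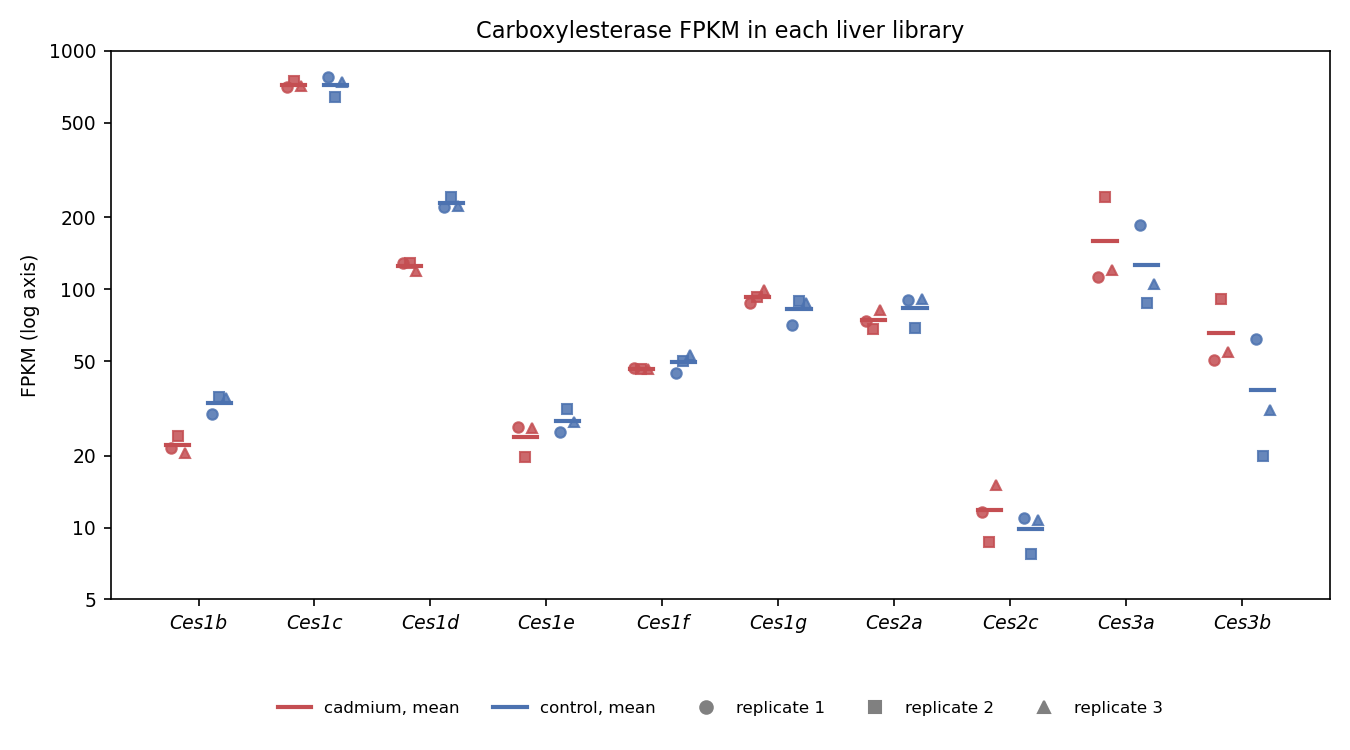
FPKM of each carboxylesterase (log axis) in the 3 cadmium libraries (left of each pair) and the 3 control libraries (right); symbols mark the replicate number and bars the group mean. Ces1d and Ces1b separate the groups, while Ces3a and Ces3b spread widely within both groups, with cadmium replicate 2 and control replicate 1 on top.

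Ces1d, known as triacylglycerol hydrolase, mobilises stored triglyceride in the endoplasmic reticulum of the hepatocyte for lipoprotein assembly. It had 129, 129 and 119 FPKM in cadmium replicates 1 to 3, against 221, 242 and 224 FPKM in control replicates 1 to 3. Every cadmium library lay well below every control library, and the spread within a group was small next to the gap. The means were 125 ± 5.64 FPKM in cadmium and 229 ± 11.5 FPKM in control livers (SD, n = 3 libraries each). The mean was lower by 45.3% in cadmium livers, with a log2 difference of -0.87 (SE 0.13, 95% interval -1.17 to -0.56, limma adjusted p = 0.0133). Within batches 1, 2 and 3 the difference was -0.78, -0.91 and -0.91, so each batch showed it at a similar size. With the batch number as a block the adjusted p was 0.0516, and without cadmium replicate 3 it was 0.0792, at a log2 difference of -0.83.

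Ces1b, a closely related gene in the same cluster, had 21.5, 24.3 and 20.6 FPKM in cadmium replicates 1 to 3, against 30.1, 35.3 and 35.0 FPKM in control replicates 1 to 3. Here too the groups did not overlap, and the 3 control libraries were all at 30.1 FPKM or more. The means were 22.1 ± 1.91 FPKM in cadmium and 33.5 ± 2.92 FPKM in control livers (SD, n = 3 libraries each). Ces1b had a log2 difference of -0.58 (SE 0.12, 95% interval -0.86 to -0.30, limma adjusted p = 0.0295). The difference was -0.47, -0.52 and -0.74 within batches 1, 2 and 3. The adjusted p was 0.0693 with the block, and leaving out cadmium replicate 1 or 3 or control replicate 2 or 3 gave 0.0915, 0.134, 0.0744 and 0.0918. Ces1d and Ces1b were the 2 members whose cadmium FPKM all lay below the control FPKM, and no member lay all above; over all tested genes 7.24% lay all below and 26.4% all above.

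Ces1c, the esterase that mice secrete into plasma, was by far the most abundant member. It had 703, 750 and 711 FPKM in cadmium replicates 1 to 3, against 774, 637 and 739 FPKM in control replicates 1 to 3. The groups overlapped and the means, 722 ± 24.9 and 717 ± 71.0 FPKM in cadmium and control livers (SD, n = 3 libraries each), were almost equal. The log2 difference was 0.01 with a 95% interval of -0.37 to 0.40, an interval that still leaves room for a moderate change in either direction. The sign of this small value was negative after quantile normalization, after median-of-ratios scaling and on the deposited log2 values, where it was -0.17.

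The remaining Ces1 genes did not pass the test. Ces1g, which in mice restrains hepatic lipogenesis, had 87.4, 92.5 and 99.5 FPKM in cadmium replicates 1 to 3, against 71.0, 89.5 and 87.8 FPKM in control replicates 1 to 3 (log2 difference 0.17, 95% interval -0.16 to 0.51, limma adjusted p = 0.48). Ces1e, the egasyn that anchors beta-glucuronidase in the endoplasmic reticulum, had 26.3, 19.8 and 26.1 FPKM in cadmium livers, against 25.2, 31.3 and 27.6 FPKM in control livers (log2 difference -0.22, 95% interval -0.56 to 0.13, limma adjusted p = 0.394). Ces1f, a triacylglycerol hydrolase related to Ces1d, had the narrowest range of all members in cadmium livers, at 46.8, 46.4 and 46.2 FPKM in cadmium livers against 44.7, 50.2 and 52.9 FPKM in control livers (log2 difference -0.08, 95% interval -0.35 to 0.19, limma adjusted p = 0.711). All 3 overlapped between the groups.

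Ces2a and Ces2c belong to the group whose human counterpart is CES2, and Ces2c hydrolyses triglyceride and diglyceride in mouse liver. Ces2a had 73.6, 68.2 and 81.8 FPKM in cadmium replicates 1 to 3, against 90.3, 68.9 and 90.9 FPKM in control replicates 1 to 3 (log2 difference -0.15, 95% interval -0.52 to 0.21, limma adjusted p = 0.578). Ces2c, the member with the lowest level, had 11.6, 8.75 and 15.1 FPKM in cadmium livers, against 10.9, 7.72 and 10.8 FPKM in control livers (log2 difference 0.23, 95% interval -0.26 to 0.72, limma adjusted p = 0.528). Both genes overlapped between the groups, and in each group replicate 2 was the lowest library for both.

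Ces3a and Ces3b, a pair of near copies, varied more than any other member. Ces3a had 112, 244 and 120 FPKM in cadmium replicates 1 to 3, against 186, 87.3 and 106 FPKM in control replicates 1 to 3 (log2 difference 0.31, 95% interval -0.62 to 1.25, limma adjusted p = 0.66). Ces3b followed the same order of libraries, with 50.6, 90.7 and 54.7 FPKM in cadmium livers and 62.1, 20.0 and 31.3 FPKM in control livers (log2 difference 0.87, 95% interval -0.21 to 1.96, limma adjusted p = 0.268). In each group the highest library was the one that stood apart in albumin and mitochondrial ribosomal RNA, cadmium replicate 2 and control replicate 1. The batch differences of Ces3b, -0.29, 2.13 and 0.79, therefore pointed both ways, and without cadmium replicate 2 the difference of Ces3a was -0.04. Without both libraries that stood apart it was 0.2736 for Ces3a (limma adjusted p = 0.359) and 1.0421 for Ces3b (limma adjusted p = 0.0524). The group difference of Ces3b was positive in every setting run, lowest at 0.5061 without control replicate 2, and was called in none.

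**Figure D2:**
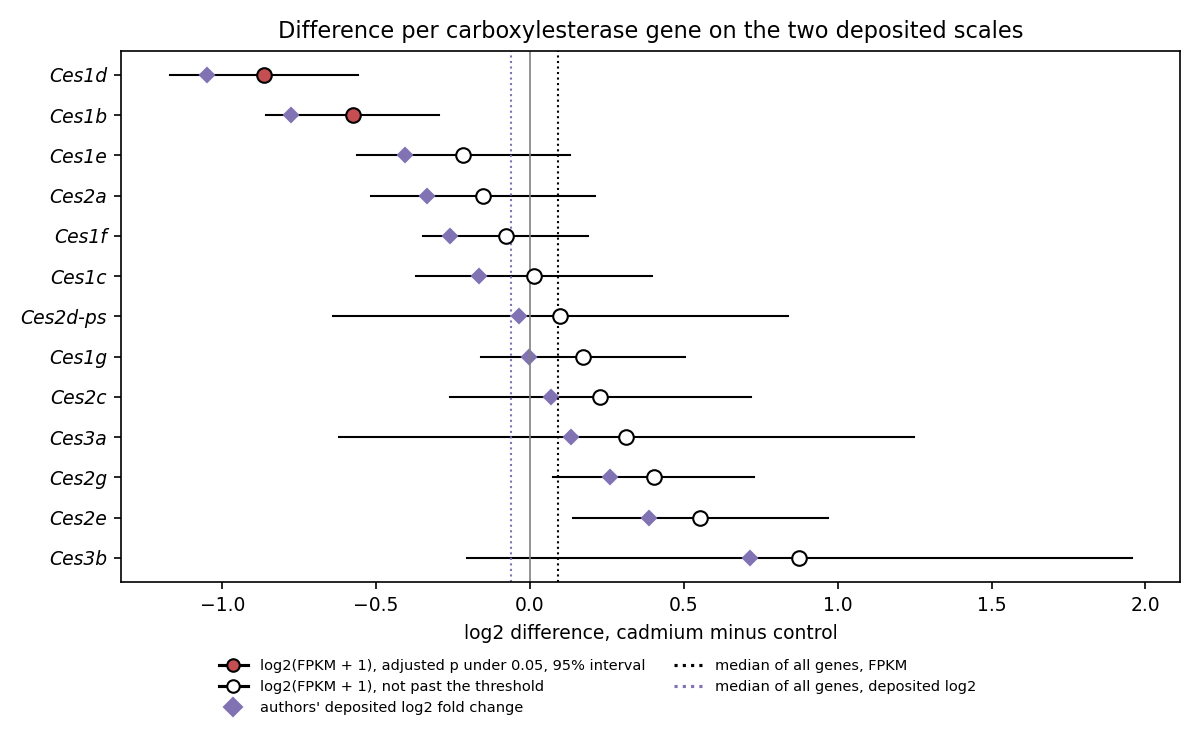
Cadmium minus control difference on the log2(FPKM + 1) scale with its 95% interval for the 13 tested carboxylesterase genes, and the log2 fold change of the authors' deposited table (diamonds). Filled circles mark Ces1d and Ces1b, the genes with an adjusted p under 0.05; dotted lines mark the median of all genes, 0.09 in FPKM and -0.06 in the deposited log2 values.

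The authors' deposited table gave lower values for the same pair and for Ces1e. Its log2 fold change was -1.05 for Ces1d (FDR 1.83e-18) and -0.78 for Ces1b (FDR 1.2e-09). For Ces1e the authors' deposited table had a log2 fold change of -0.41 with an FDR of 0.0427, and the other 7 members had an FDR between 0.105 and 0.99. In the authors' deposited table, 1082 of all 34352 genes (3.15%) were lower and 1277 (3.72%) higher at an FDR under 0.05.

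The family as a whole did not separate the groups. The 10 genes summed to 1262, 1473 and 1294 FPKM in cadmium replicates 1 to 3, against 1515, 1270 and 1406 FPKM in control replicates 1 to 3, which overlap. Ces1c made up 50.9% to 55.7% of that sum in cadmium libraries and 50.2% to 52.6% in control libraries. The share of Ces1d was 8.73% to 10.2% in cadmium libraries, against 14.6% to 19.1% in control libraries, and that of Ces1b was 1.59% to 1.70% against 1.99% to 2.78%. These were the 2 shares that did not overlap between the groups.

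**Figure D3:**
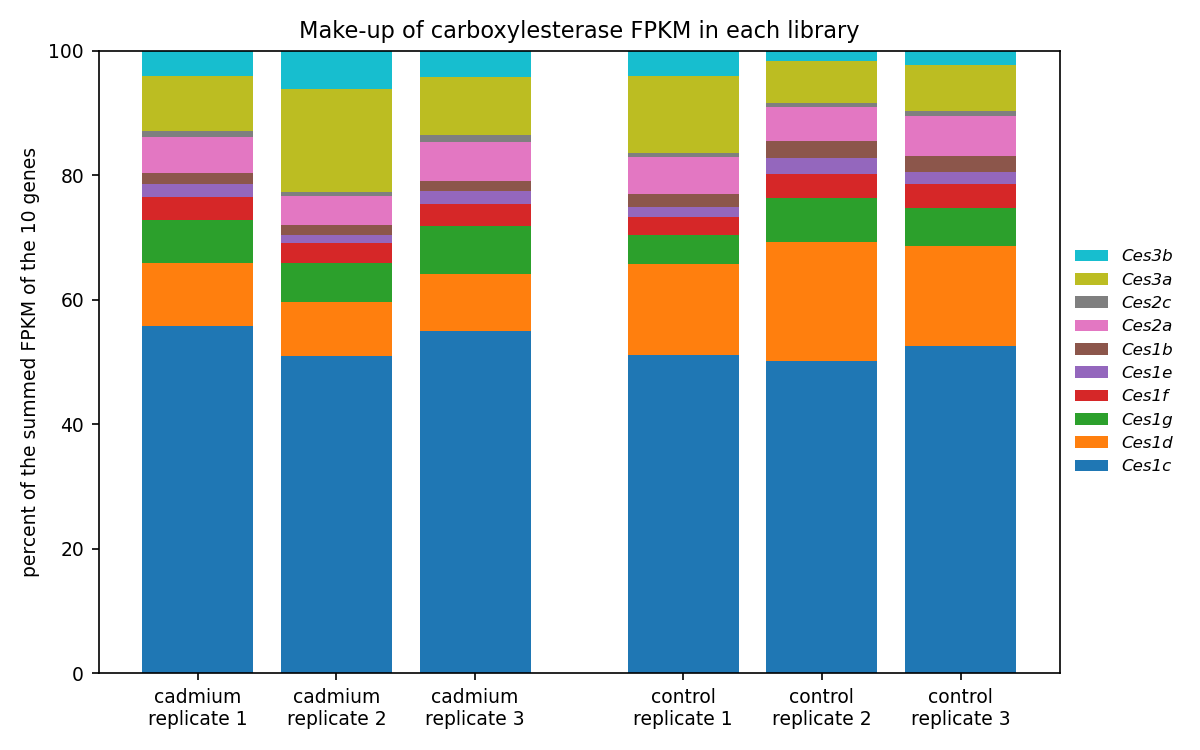
Share of each gene in the summed FPKM of the 10 carboxylesterases, in percent, for the 3 cadmium libraries (left) and the 3 control libraries (right). Ces1c fills about the same part of every bar, the Ces1d band is thinner in all 3 cadmium libraries, and the Ces3a band is widest in cadmium replicate 2 and control replicate 1.

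The order of levels, set per length by FPKM, shifted accordingly. In cadmium livers Ces1c was followed by Ces3a and Ces1d, whose ranges overlapped, then by Ces1g, Ces2a and Ces3b; Ces3b overlapped both Ces1g and Ces2a, which did not overlap each other. In control livers Ces1d stood alone in the second place, above Ces3a, and Ces3a, Ces2a and Ces1g followed with overlapping ranges from each to the next. Among the 9908 tested genes Ces1d ranked 267 by mean FPKM in cadmium livers and 163 in control livers, while Ces1c ranked 61 and 60. Ces1b ranked 1206 in cadmium and 827 in control livers.

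Ratios between 2 members within a library are free of the library's scaling, and those with Ces1d separated the groups. Ces1d over Ces1c was 0.183, 0.172 and 0.167 in cadmium replicates 1 to 3, against 0.286, 0.381 and 0.303 in control replicates 1 to 3. Ces1d over Ces1g was 1.19 to 1.47 in cadmium and 2.55 to 3.12 in control libraries. In all 9 pairs that contain Ces1d the ratio did not overlap between the groups, against 5 of 9 for Ces1b and 2 to 4 of 9 for the other members; over all 45 pairs the share was 40.0%. A ratio shows unequal change and does not say which gene moved.

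Ratios of 3 pairs of close relatives also separated the groups, among the 18 of all 45 pairs that did. Pairs of genes outside the family were not compared, so how common such a separation is among gene pairs is not known here. Ces3b over Ces3a was 0.372 to 0.454 in cadmium libraries, against 0.229 to 0.334 in control libraries, although both genes varied strongly from library to library. Ces2a over Ces2c was 5.40 to 7.80 in cadmium libraries, against 8.24 to 8.92 in control libraries. None of these 4 genes passed the test alone. Ces1b over Ces1c was 0.0290 to 0.0324 in cadmium libraries and 0.0389 to 0.0554 in control libraries. For each of these ratios the two-sided exact permutation p was 0.1, the smallest that 3 libraries against 3 allow.

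**Figure D4:**
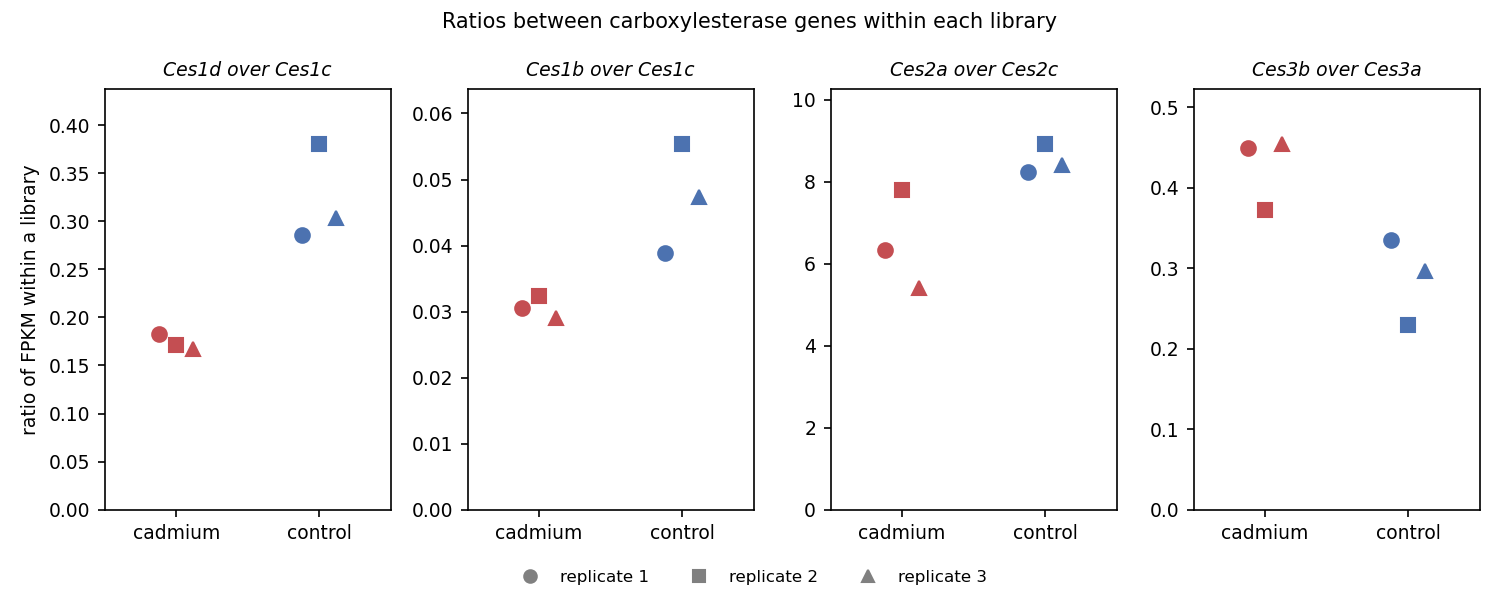
Ratio of FPKM between 2 carboxylesterase genes within each library (vertical axes start at 0), with the 3 cadmium libraries left of the 3 control libraries and symbols for the replicate number. None of the 4 ratios overlaps between the groups: Ces1d over Ces1c, Ces1b over Ces1c and Ces2a over Ces2c are lower in cadmium libraries and Ces3b over Ces3a is higher.

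All 20 mouse carboxylesterase genes examined lie on chromosome 8 of GRCm38 (mm10) in 2 clusters, by the GENCODE M21 annotation. The Ces1 genes and Ces5a fill chr8:93020214-93535830, 516 kb with 9 genes that are all on the minus strand. The Ces2, Ces3 and Ces4a genes fill chr8:104734003-105150109, 416 kb with 11 genes that are all on the plus strand. Ces1b spans chr8:93056728-93080017 and Ces1d chr8:93166068-93197838. Between this pair of lower genes lies Ces1c, at chr8:93099015-93131283, which was not called, and on the other side of Ces1d lies Ces1e, at chr8:93201218-93229619, which was not called either. No exon of another annotated gene overlaps the exons of Ces1b or Ces1d.

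**Figure D5:**
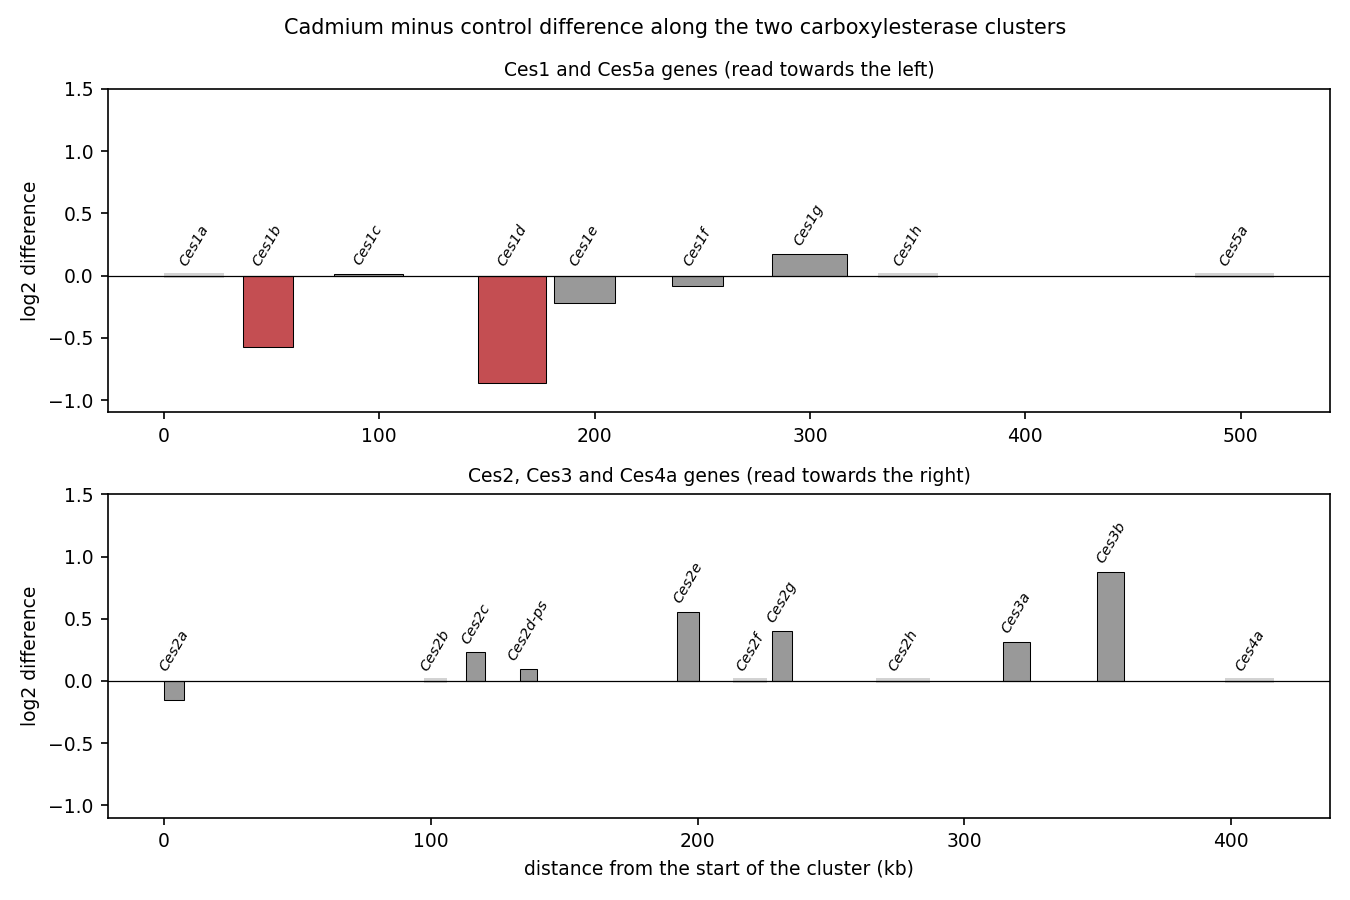
Cadmium minus control log2 difference of each carboxylesterase gene, drawn at its place in the Ces1 and Ces5a cluster (top) and the Ces2, Ces3 and Ces4a cluster (bottom), with distance in kb from the start of each cluster. Red bars are Ces1b and Ces1d, grey bars the tested genes that were not called, and pale marks at 0 the genes below the filter.

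The copies are alike enough in sequence for short reads to be shared. The open reading frames of Ces3a and Ces3b were 95.3% identical, those of Ces1b and Ces1c 91.2%, those of Ces2a and Ces2c 82.7% and those of Ces1d and Ces1g 81.6%. Of all 50-base windows of a member's transcript, 30.9% of Ces3a and 26.1% of Ces3b also occurred in the other gene, and 42.2% of Ces2c and 22.2% of Ces2a occurred elsewhere, mostly in Ces2d-ps for Ces2c and in Gm7208 for Ces2a. For 150-base windows, the length of 1 read, these shares were 2.37% for Ces3a, 2.00% for Ces3b, 3.35% for Ces2c and 4.03% for Ces2a. The Ces3 and Ces2 values are therefore uncertain to the extent that reads were split between copies, since the counting rule is not given in the sources used here. Ces1d shared 1.28% of its 50-base windows with any other gene. Ces1b shared 11.6% and the far more abundant Ces1c 17.0%, in both cases mostly with each other. None of these genes shared a 150-base window.

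Ces1b and Ces1c also have nearly the same promoter, so these stretches are shown beside the values of the genes. RefSeq promoters (GRCm38.p6) were at hand for 7 of the 10 members, Ces1b, Ces1c, Ces1e, Ces1g, Ces2a, Ces2c and Ces3b. Ces1d had no entry, so its promoter was not examined. The most widely shared 8-base word in the 250 bases before the start sites of Ces1 genes, searched on both strands, was TTATGTAA or its reverse complement TTACATAA, held by Ces1a, Ces1b, Ces1c, Ces1e and Ces1g, 5 of the 6 Ces1 genes with an entry. Among all 32851 promoters given, 269 or 0.819% held it, and none of those of the 6 Ces2 genes or of Ces3b did. The word was picked from these Ces1 promoters, so its frequency among them is no test against that share. The word is in capitals below, each sequence is on the minus strand of chromosome 8, and the stretches span chr8:93079997-93080124 for Ces1b, chr8:93131350-93131477 for Ces1c, chr8:93229673-93229800 for Ces1e and chr8:93337414-93337459 for Ces1g.
Ces1b: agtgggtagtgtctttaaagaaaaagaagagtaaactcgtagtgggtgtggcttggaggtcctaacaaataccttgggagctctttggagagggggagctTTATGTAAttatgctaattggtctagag
Ces1c: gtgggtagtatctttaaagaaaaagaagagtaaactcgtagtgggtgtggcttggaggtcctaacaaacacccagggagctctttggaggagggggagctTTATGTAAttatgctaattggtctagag
Ces1e: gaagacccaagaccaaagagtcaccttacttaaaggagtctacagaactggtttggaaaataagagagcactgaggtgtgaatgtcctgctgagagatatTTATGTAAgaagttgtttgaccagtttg
Ces1g: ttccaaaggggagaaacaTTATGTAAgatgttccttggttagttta

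The word lay 84 bases before 1 of the start sites of Ces1b, and 94, 81 and 232 bases before the start of Ces1c, Ces1e and Ces1g. The printed stretches of Ces1b and Ces1c were identical at 123 of 127 aligned bases (96.9%), against 60.0% between Ces1b and Ces1e. Of these 4 genes Ces1b was called lower and Ces1c, Ces1e and Ces1g were not. The word matches the site that the PAR bZIP factors Dbp, Tef and Hlf and their antagonist Nfil3 are known to recognise, a match in letters that does not show binding in these livers. The RNA of Tef and Hlf fell, by 0.82 and 0.60 on the log2 scale (limma adjusted p = 0.0258 and 0.0406), and that of Nfil3 rose by 0.57 (limma adjusted p = 0.0198). Dbp had a log2 difference of -0.77 with a limma adjusted p of 0.119. These 4 genes were named after their values were seen, and the calls of Tef, Hlf and Nfil3 were lost with the block, at limma adjusted p of 0.075, 0.0584 and 0.0584. Without cadmium replicate 3 the limma adjusted p was 0.104 for Tef, 0.146 for Hlf and 0.0865 for Nfil3. The call of Nfil3 was also lost without cadmium replicate 1, and on the deposited log2 values (limma adjusted p = 0.0599). The call of Tef was lost without any library other than cadmium replicate 2, and that of Hlf without any other than control replicate 1. The promoters of Ces2 genes shared another word most widely, ACTTTGCC (reverse complement GGCAAAGT), tied with CTTTGCCC (reverse complement GGGCAAAG). Both were held by Ces2a, Ces2e, Ces2f and Ces2g, 4 of the 6 with an entry, and by 0.801% and 1.44% of all promoters. These words too were picked from the promoters in which they were counted.

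Of the other 10 carboxylesterase genes, Ces2e, Ces2g and the pseudogene Ces2d-ps passed the filter and none was called. Ces2e, in the same cluster as Ces2c, had 54.03, 42.9 and 68.8 FPKM in cadmium replicates 1 to 3, against 37.7, 34.4 and 37.9 FPKM in control replicates 1 to 3. All 3 cadmium libraries were above the control libraries, with a log2 difference of 0.55 (SE 0.18, limma adjusted p = 0.0961, and 0.0473 with voom on the recovered reads, which called 9.87% of all genes higher). Ces2g averaged 11.8 ± 1.59 FPKM in cadmium and 8.70 ± 1.304 FPKM in control livers (SD, n = 3 libraries each). Its log2 difference was 0.40 (limma adjusted p = 0.118). Ces2d-ps had a log2 difference of 0.10 (limma adjusted p = 0.872). Ces1a, Ces1h, Ces2b, Ces2f, Ces2h, Ces4a and Ces5a had between 0 and 44 reads in any library.

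The 3 tested genes whose pattern over the 6 libraries was most like that of Ces1d, by the root mean square difference of centred log2 values, were Slc16a12, Lonrf1 and Stim2 (0.0742, 0.0889 and 0.0996). Slc16a12 had 12.3, 12.5 and 11.1 FPKM in cadmium libraries, against 23.9, 24.8 and 20.3 FPKM in control libraries. All 3 genes were lower in every cadmium library than in any control library, as Ces1d was. This follows from picking them by their likeness to Ces1d.

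Around the carboxylesterases, other lipid hydrolases moved in both directions. Of 18 measured lipases and lipid hydrolases 1 fell and 3 rose, with a median log2 difference of 0.01 against 0.09 over all genes, of which 1.82% were called lower and 7.86% higher. On the deposited log2 values 3 of the 18 were called lower, against 4.98% of all genes. Abhd6, a monoacylglycerol lipase, had 4.33, 6.22 and 5.43 FPKM in cadmium livers, against 9.97, 12.3 and 10.1 FPKM in control livers (log2 difference -0.90, limma adjusted p = 0.0133). Pnpla7, a lysophospholipase, Lpl, the lipoprotein lipase of capillary walls, and Lipa, the lysosomal acid lipase, rose by 0.59, 0.90 and 0.65 (limma adjusted p = 0.0129, 0.015 and 0.0217). Without cadmium replicate 3 none of these 4 calls held (limma adjusted p 0.0619 for Abhd6, 0.0672 for Pnpla7, 0.0511 for Lpl and 0.101 for Lipa), and with the block the 3 higher calls were lost. Lipa was also lost without cadmium replicate 1 or control replicate 3, at 0.0703 and 0.0675, and Lpl without control replicate 3, at 0.0547. Lipa averaged 26.6 FPKM in cadmium livers, so it lay below Ces1d in both groups. By limma on log2(FPKM + 1), 0 of 13 genes of lipoprotein assembly, 0 of 14 other esterases of drugs and xenobiotics and 0 of 9 proteins of the endoplasmic reticulum lumen were called, with medians of 0.06, 0.12 and 0.03. At an unadjusted p under 0.05, 2 lipoprotein assembly genes were lower, 4 other esterases were higher and 0 lumen proteins passed. Over all 9908 genes, 2674 passed that unadjusted threshold in either direction. The share of all genes in each direction was not computed, so these counts were not read as setting the lists apart. The deposited log2 values called 1 lipoprotein assembly gene lower, and voom called 1 other esterase higher.

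Of 10 genes that make, store or carry retinoid, a pathway whose retinyl esters carboxylesterases can hydrolyse, 3 rose, against 7.86% of all genes. Dhrs3, a retinal reductase, Stra6l, a receptor for retinol-binding protein, and Lrat, the enzyme that esterifies retinol in stellate cells, differed by 0.79, 0.92 and 0.53 (limma adjusted p = 0.0102, 0.0133 and 0.0228). Without cadmium replicate 3 the limma adjusted p of these genes was 0.0616, 0.0652 and 0.0783, and Lrat was also lost without cadmium replicate 1 or control replicate 3 (0.0707 and 0.0703), without both libraries that stood apart (0.0675) and with the block (0.0668). Lrat is also on the stellate cell list, whose sums did not overlap between the groups. Of 18 transcription factors linked to hepatic drug and lipid metabolism 1 fell and 2 rose, with a median of -0.07, against 1.82% lower and 7.86% higher over all genes. The number called lower was 2 after quantile normalization, after median-of-ratios scaling, with voom and without trend and robust moderation, 3 without both libraries that stood apart, and 4 on the deposited log2 values. All genes called lower numbered 298, 292, 202, 160, 244 and 493 in these settings, in the order named. The fit behind the 1.82% called 180. Cebpb, a liver bZIP factor, had 34.9, 46.9 and 40.0 FPKM in cadmium livers, against 81.8, 107 and 110 FPKM in control livers (log2 difference -1.27, limma adjusted p = 0.00994). Nr1d1, the clock repressor REV-ERB alpha, had 35.1, 30.7 and 30.7 FPKM in cadmium livers, against 9.16, 5.46 and 11.9 FPKM in control livers (log2 difference 1.81, limma adjusted p = 0.0114). Stat5b, which carries the growth hormone signal, rose by 0.74 (limma adjusted p = 0.0101). Without cadmium replicate 3 the limma adjusted p was 0.0511 for Cebpb, 0.0515 for Nr1d1 and 0.0547 for Stat5b, and without both libraries that stood apart it was 0.0684 for Nr1d1. Nr1i2, the xenobiotic receptor PXR, had 12.2, 13.0 and 11.8 FPKM in cadmium livers, against 16.1, 17.6 and 15.4 FPKM in control livers. These values did not overlap, and the limma adjusted p was 0.0568. Quantile normalization gave a limma adjusted p of 0.0397 and the deposited log2 values 0.0135. With the block it was 0.0961, and leaving out 1 library gave 0.0825 to 0.223.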

How the data were processed

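The authors deposited FPKM for 55335 genes and, in a second table with symbols, log2 values for 34352 genes with their own fold change, p-value and FDR. Undoing log2 in the deposited table gave whole reads divided by a size factor for 100% of values within 0.05 of a read, and those reads give the depths. STAR 2.7.1a, cutadapt 1.1.8 and SAMtools 1.3.1 with mm10 are named in the submitters' processing notes; no source used here gives the counter or its strand setting.

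Groups were compared with limma 3.58.1 (R 4.3.3; trend, robust, two-sided) on log2(FPKM + 1) over genes with FPKM of at least 1 in 3 of 6 libraries, adjusted by Benjamini-Hochberg at 0.05 and tested on simulated data; this scale understates changes of low genes. The members and gene lists were chosen with earlier results of these data known. All members, the carboxylesterases past the filter and up to 4 genes of smallest p per other list are named. The batch number in the labels pairs the libraries; same-numbered libraries deviated with correlations of -0.21, -0.23 and -0.02. Alternatives changed the pseudocount, filter, scaling, input values, moderation, block and libraries. Open reading frames and windows come from GENCODE M21, whose identifiers held 99.67% of the FPKM genes.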

Additional observations from a re-analysis of the deposited data

How the results depend on the processing

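With the replicate block 0 of the 10 carboxylesterases were called lower (Ces1d adjusted p = 0.0516, log2 difference -0.87; Ces1b 0.0693, -0.58), and 64 of all genes were lower and 184 higher. Without a filter 0 members, 6 lower and 31 higher genes passed (Ces1d adjusted p = 0.0503, -0.87; Ces1b 0.0905, -0.58). Leaving out 1 library, or both that stood apart, gave 0 to 2 members lower, log2 differences of -0.91 to -0.82 for Ces1d (-0.8247 without control replicate 2) and -0.71 to -0.53 for Ces1b, with 23 to 244 genes lower and 78 to 539 higher; the lowest counts came without cadmium replicate 3. In the other settings run both members were called lower.

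All genes called lower and higher numbered 74 and 205 at FPKM of at least 5, 298 and 347 after quantile normalization, 292 and 386 after median-of-ratios scaling, 493 and 381 on the deposited log2 values, and 202 and 978 with voom. The sign turned for Ces1c (-0.0402 quantile, -0.11 median-of-ratios, -0.17 deposited), Ces1g (-0.0045 deposited) and Ces2d-ps (-0.012 quantile, -0.0345 deposited). Leaving out libraries gave -0.0685 to 0.0714 for Ces1c, -0.0412 to 0.6275 for Ces3a and -0.17 to 0.2785 for Ces2d-ps. None of these 4 was called in any setting, and no member was called higher. The cause of these shifts was not tested. With 3 libraries per group, the 95% intervals of uncalled members reach from -0.62 to 1.96.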
